A study of Homo sapiens with 2 samples.

Results

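The translation initiation factor genes were read across the m6A map of untreated, wild-type Huh-7, a widely used cell line that was derived from a human liver cancer. Members were the genes of the deposited expression table whose names run from EIF1 to EIF6 with only capitals and digits after them, at any level. EIF3C and EIF3CL and names that end in P and digits were left out. The rule found 49 of 86 such names, among 25105 listed genes. The 37 names left out were EIF3C, EIF3CL, 3 genes of 4E-binding proteins, which end in P and a digit but are not pseudogenes, and 32 pseudogenes. The members formed 4 name groups, with 15 EIF2 genes, 12 EIF3 genes, 12 EIF4 genes and 10 genes named EIF1, EIF5 or EIF6.

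Initiation factors bring a ribosome to the start codon of an mRNA. EIF4 proteins bind the cap and unwind the leader, EIF3 sits on the small subunit as a large scaffold, and EIF2 delivers the initiator tRNA with GTP. EIF2B recharges EIF2 with GTP, and 4 stress kinases phosphorylate EIF2 and so slow that exchange. N6-methyladenosine (m6A) is a methyl mark on adenosines inside mRNA, frequent near stop codons and in 3' UTRs, and antibodies to it can also bind a related methylated adenosine next to the cap. EIF3 has itself been described as a protein that binds m6A in 5' UTRs.

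The data came from 1 library of RNA fragments pulled down with an m6A antibody (the IP) and 1 library of fragments before the pull-down (the input). No value below therefore has a replicate check, no test between the libraries or the groups was possible, and the read depth of both libraries is unknown. The level of a gene is its FPKM in the input, a fragment count scaled to transcript length and library size. The fold of a peak is IP over input, and its fold, p and adjusted p are the authors' own values from the deposited peak list. Intervals on shares of genes or peaks are exact 95% intervals that cover counting error only. Markers chosen for Huh-7 as a liver cancer line were abundant, from 68.5 FPKM for TTR to 2380 FPKM for AFP. Of 12 markers of leukocytes, endothelium and fibroblasts, PTPRC, CD3E, MS4A1, VWF, CDH5 and KDR were not listed, and the other 6 stood at 1.46 FPKM or less.

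The annotated transcript starts of these genes are shown first, because none of the genes with an oligopyrimidine start had a peak in the first 50 transcribed bases. RefSeq start windows (GRCh38.p14) were matched by symbol for 42 of the 49 members. A terminal oligopyrimidine tract, taken here as a C as the first transcribed base with at least 4 more C or T bases directly after it, stood at an annotated start of 10 of those 42 genes (23.8%). Among protein-coding genes at 1 FPKM or more the share was 7.60% (658 of 8659). Such tracts are known to place the translation of an mRNA under control of mTOR and the RNA-binding protein LARP1. EIF3 had 4 of its 7 matched genes with a tract (57.1%), EIF2 had 4 of 13 (30.8%), EIF4 had 2 of 12 (16.7%), and the EIF1, EIF5 and EIF6 genes had 0 of 10. The 10 starts follow, each with 10 bases before the start and 20 transcribed bases, from 5′ to 3′ on the strand of the gene, with the tract in capitals.
EIF2A, chr3:150546777-150546806, plus strand: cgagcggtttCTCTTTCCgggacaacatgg
EIF2D, chr1:206612446-206612475, minus strand: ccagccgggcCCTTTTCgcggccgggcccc
EIF2S3, chrX:24054946-24054975, plus strand: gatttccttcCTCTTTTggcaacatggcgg
EIF2S3B, chr12:10505880-10505909, plus strand: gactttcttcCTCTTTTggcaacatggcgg
EIF3D, chr22:36529147-36529176, minus strand: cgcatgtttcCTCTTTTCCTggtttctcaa
EIF3F, chr11:7987327-7987356, plus strand: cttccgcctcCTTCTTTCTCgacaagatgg
EIF3K, chr19:38619178-38619207, plus strand: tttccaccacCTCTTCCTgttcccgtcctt
EIF3M, chr11:32583821-32583850, plus strand: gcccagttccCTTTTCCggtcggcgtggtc
EIF4A2, chr3:186783567-186783596, plus strand: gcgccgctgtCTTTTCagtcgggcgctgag
EIF4B, chr12:53006446-53006475, plus strand: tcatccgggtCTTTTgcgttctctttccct

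The tracts ran from 5 bases in EIF4B to 10 bases in EIF3D and EIF3F. EIF2S3, which encodes the GTP-binding gamma subunit of EIF2, and its autosomal copy EIF2S3B had identical letters over all 20 transcribed bases. Reads of these genes may have been split between them, so their values are uncertain. EIF3K, 1 of the 10 genes, had no listed peak anywhere. None of the 10 genes had a listed peak that overlapped the first 50 transcribed bases of its annotated start by 1 base or more. Of the 31 expressed members with a window but no tract, 13 had one (41.9%, interval 24.5% to 60.9%). The interval for 0 of 10 reached 30.8%, so the shares overlap in their counting error. Among all protein-coding genes at 1 FPKM or more the 2 shares differed little, at 29.8% with a tract (196 of 658) and 27.7% without (2218 of 8001). The pattern in the members was noticed after their values were seen, and no test of it was made. Any peak listed in a 5' UTR was found in 1 of the 10 tract genes, EIF3D (10.0%, interval 0.253% to 44.5%), and in 15 of the 31 others (48.4%, interval 30.2% to 66.9%). These intervals overlap, and over all coding genes the shares were 42.7% with a tract and 42.8% without. The starts below belong to 4 of the 13 genes with a peak overlapping those 50 bases and are shown for contrast, with the first transcribed base in capitals.
EIF2S1, chr14:67360318-67360347, plus strand: gaggttccgcAtgcgcggtggagtgagcga
EIF3B, chr7:2354817-2354846, plus strand: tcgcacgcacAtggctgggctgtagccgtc
EIF4E, chr4:98929114-98929143, minus strand: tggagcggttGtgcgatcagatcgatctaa
EIF5B, chr2:99337379-99337408, plus strand: ctgagaactcAcaccatatgtgtcctgttc

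The peaks that overlapped the first 50 transcribed bases of these 4 starts had log2 folds of 1.51 in EIF2S1, 1.12 in EIF3B, 1.35 in EIF4E and 1.28 in EIF5B. Such a peak can reach far beyond the start. These ran over 3847 nt in EIF2S1, 731 nt in EIF3B, 177 nt in EIF4E and 26904 nt in EIF5B. EIF2S1 encodes the alpha subunit of EIF2 that the stress kinases phosphorylate, and EIF5B encodes the GTPase that joins the ribosomal subunits. Starts with A as the first base had a peak overlapping those 50 bases in 8 of 20 windows of expressed members and starts with G in 7 of 19. A gene can have several windows, and 1 peak of EIF5A was counted in more than 1 window of each kind. By genes the counts were 7 of 17 for A and 6 of 16 for G. Starts with C held one in 1 of 14, a start in EIF4E2, which encodes a cap-binding protein known for repressing translation. Of these 14 windows, 10 are the tract starts shown above, so the count for C largely repeats the result for the tracts. Over the windows of all protein-coding genes the shares lay close together, at 24.6% for A, 22.9% for G and 20.7% for C. The letters GGAC, a common m6A context, occurred on the transcribed strand in the first 50 bases of 8 of 55 windows of expressed members (14.5%) and on the other strand in 18.2%. The shares over 12555 windows of protein-coding genes were 19.8% and 19.4%. The start sites are those annotated by RefSeq, and the starts used in Huh-7 cells were not measured.

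**Figure D1:**
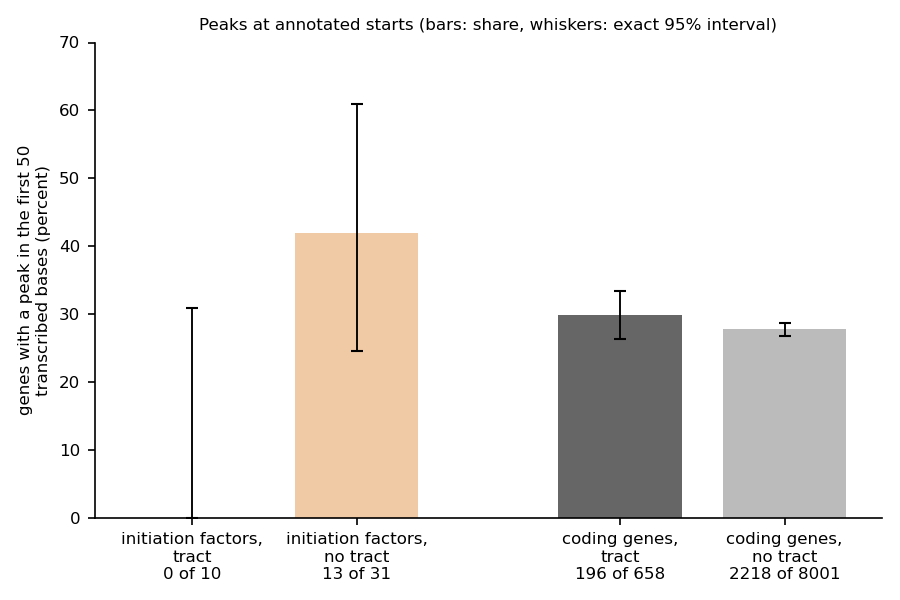
Share of genes with a listed peak of any length that overlaps the first 50 transcribed bases, in percent. Shown are expressed initiation factor genes and all protein-coding genes at 1 FPKM or more, each with and without a terminal oligopyrimidine tract. Bars are shares and whiskers exact 95% intervals; the initiation factor genes with a tract stand at 0 of 10 against 13 of 31 without, while the shares of all coding genes are 29.8% and 27.7%.

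Of the 49 genes, 48 reached 1 FPKM in the input and are called expressed. The exception was EIF4E3, a cap-binding paralogue, at 0.365 FPKM with no peak. EIF5A, which encodes a factor that carries the modified residue hypusine and helps ribosomes move on, was the most abundant at 112 FPKM. EIF4G1, the scaffold of the cap-binding complex, followed at 73.2 FPKM, and EIF4H, a cofactor of the helicase, at 72.6 FPKM. Levels fell into a high and a low set within EIF4. EIF4G1, EIF4H, EIF4B, EIF4G2, EIF4A1 and EIF4A2 stood between 60.3 and 73.2 FPKM, and the other 6 EIF4 genes were at 11.6 FPKM or lower. EIF4E, the cap-binding protein itself, was listed at 2.87 FPKM, so the 3 core genes of the cap complex, EIF4E, EIF4G1 and EIF4A1, spanned a ratio of 25.5. The processed pseudogene EIF4EP2 was listed at 3.33 FPKM, above EIF4E, so reads of EIF4E may have been assigned to it. Only EIF5A and EIF6 outside EIF4 exceeded 50 FPKM.

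The EIF3 subunits lay closer together, from 6.74 FPKM for EIF3M to 38.5 FPKM for EIF3I, a ratio of 5.71. EIF3I, EIF3G, EIF3L, EIF3B, EIF3A and EIF3D were above 23 FPKM, and EIF3F, EIF3H and EIF3M were below 8 FPKM. In EIF2 the alpha subunit gene EIF2S1 stood at 8.30 FPKM, the beta subunit gene EIF2S2 at 28.6 and EIF2S3 at 25.8. The 5 genes of EIF2B, the exchange factor, were low and close together, from 2.88 FPKM for EIF2B4 to 7.36 FPKM for EIF2B5. The EIF2 kinases differed more. EIF2AK1, the kinase that senses loss of heme, stood at 27.1 FPKM, EIF2AK3, the kinase of the endoplasmic reticulum, at 5.48, EIF2AK2, which binds double-stranded RNA, at 3.55 and EIF2AK4, which senses uncharged tRNA, at 1.70. Median levels over expressed genes were 5.48 FPKM in EIF2, 19.6 in EIF3, 60.3 in EIF4 and 13.9 in the EIF1, EIF5 and EIF6 genes. The EIF4 median is the level of EIF4A2, the lowest of its high set, and without the genes that have a near-identical copy it was 11.6 FPKM.

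**Figure D2:**
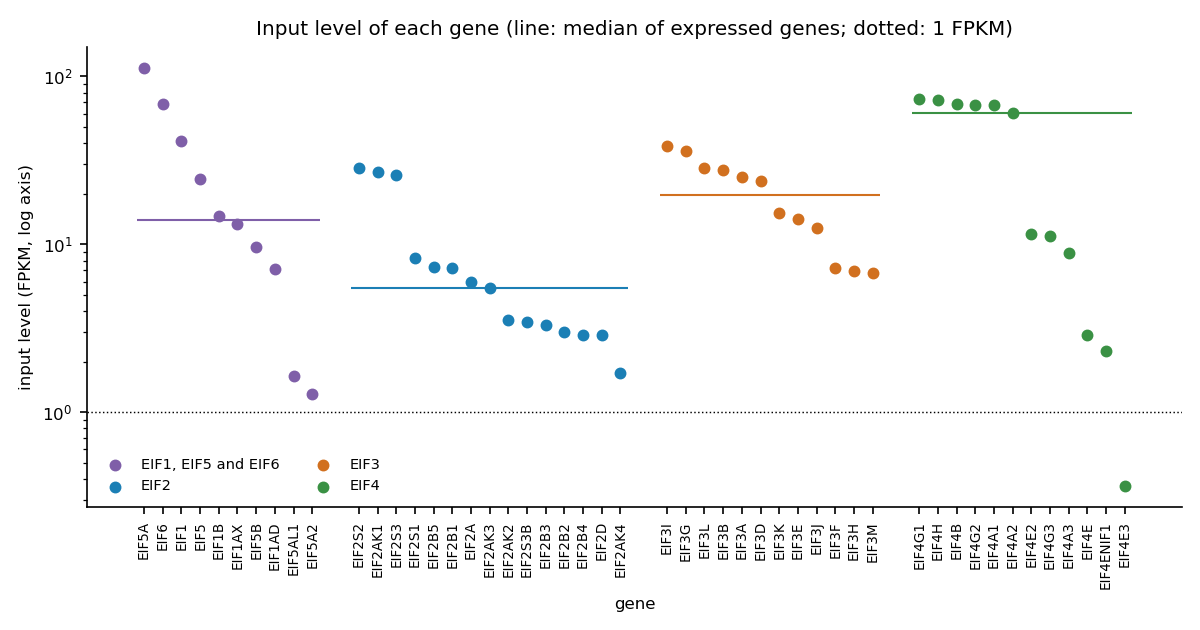
Input level of each initiation factor gene in FPKM on a log axis, ordered within 4 name groups, from 1 input library. Points are genes and lines the medians of genes at 1 FPKM or more (dotted line); 6 EIF4 genes lie between 60.3 and 73.2 FPKM, while EIF4E is at 2.87 and the EIF2 median at 5.48 FPKM.

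A peak was listed for 47 of the 48 expressed genes (97.9%, interval 88.9% to 99.9%), and the background over 10548 protein-coding genes at 1 FPKM or more was 96.2%. Nearly every expressed gene is in the list, so the presence of a peak does not set these genes apart. EIF3K, a peripheral EIF3 subunit at 15.4 FPKM, was the expressed member with no peak. The members held 193 peaks, with a median of 3.5 per gene. EIF2AK2 and EIF3B held the most, with 10 each, EIF5B held 9, and 7 members held 1.

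The size of the strongest peak differed from the background more than its presence did. A peak of at least 4-fold (log2 fold of 2) was listed for 6 of 48 genes (12.5%, interval 4.73% to 25.2%) against a background of 40.7%. A peak of at least 2-fold with an adjusted p under 0.001 was listed for 22 of 48 (45.8%, interval 31.4% to 60.8%) against 67.5%. The median log2 fold of the strongest peak was 1.32 over members, with quartiles of 0.84 and 1.75, and 1.76 over all protein-coding genes, with quartiles of 1.18 and 2.56. Strong peaks are more frequent among low genes in this list, so members were set beside genes of like level. From 1 to 5 FPKM, 1 of 11 members (9.09%) and 50.5% of coding genes had a 4-fold peak. From 5 to 20 FPKM the values were 2 of 18 (11.1%) and 37.0%. From 20 to 100 FPKM they were 3 of 18 (16.7%) and 18.2%. The medians of the strongest peak in these ranges were 1.35 against 2.07, 1.51 against 1.62 and 1.02 against 1.17. At 100 FPKM or more the only member, EIF5A, went the other way, at 1.61 against a median of 0.84 over coding genes. It had no 4-fold peak, against 6.85% of coding genes there.

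**Figure D3:**
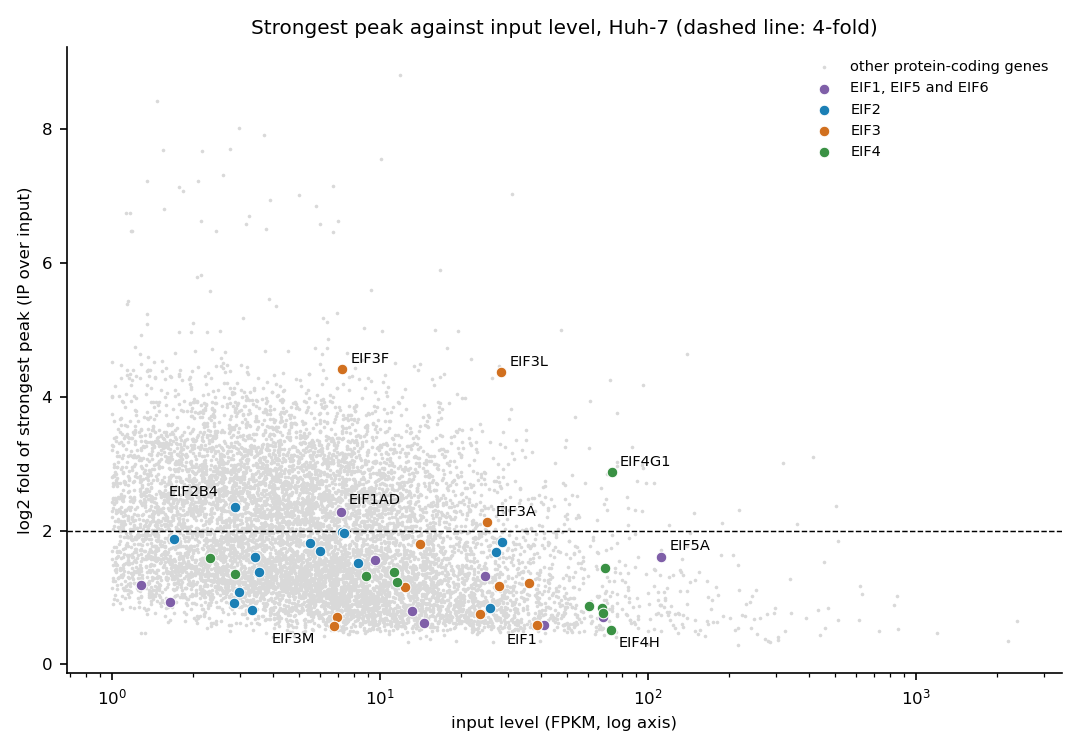
Log2 fold of the strongest listed peak of each gene (IP over input) against its input level in FPKM on a log axis, with initiation factor genes coloured by name group and other protein-coding genes at 1 FPKM or more in grey. EIF3F at 4.42, EIF3L at 4.37, EIF4G1 at 2.87, EIF2B4 at 2.36, EIF1AD at 2.28 and EIF3A at 2.12 lie above the dashed 4-fold line, and the other members lie below it.

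The 6 members past 4-fold differed in how much stood behind the fold. EIF4G1 had its strongest peak at chr3:184334732-184335356, 625 nt that end 2 nt before the end of the gene, with a log2 fold of 2.87 (7.33-fold) and an adjusted p listed as 0. EIF3A, the largest subunit of EIF3, had a peak of 2.12 (4.35-fold) at chr10:119035320-119042701, labelled 3' UTR, with an adjusted p of 1.37e-285. That peak was long, at 7382 nt. The other 3 peaks of EIF3A did not exceed 0.53. EIF3F, a subunit with a deubiquitinase-like fold, had the highest value, 4.42 (21.3-fold), at chr11:8000082-8000756 with an adjusted p of 1.98e-33. Another 4 peaks labelled 3' UTR preceded it, with log2 folds from 0.65 to 1.48. Its pseudogene EIF3FP3 was listed at 8.17 FPKM, above the 7.22 FPKM of EIF3F, and had no peak, so reads of the coding part could be split between them.

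EIF1AD, named for a domain shared with the scanning factor EIF1A, had a peak of 2.28 with an adjusted p of 1.18e-55. It ran over 1381 nt, labelled 3' UTR of a nonsense-mediated decay transcript, with its midpoint at 62.0% of the gene span. A second peak of EIF1AD, of 1.33, was labelled 5' UTR. EIF2B4, the delta subunit of the exchange factor, had a peak of 2.36 over 200 nt of an intron, with an adjusted p of 0.000625. EIF3L, a peripheral subunit, reached 4.37 at chr22:37848893-37849167 with an adjusted p of only 0.00403. That peak lay inside the gene span the authors list but ended before the RefSeq start at 37849419, and it overlapped a peak of ANKRD54 on the other strand. Which of these genes the reads came from was not tested. The next peaks of EIF3L were 1.96 in 2 intronic regions, just under 4-fold. The nearest members below the line were EIF2B1 at 1.98 and EIF2B5 at 1.97, and 13 members lay between 1.5 and 2 on the log2 scale.

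**Figure D4:**
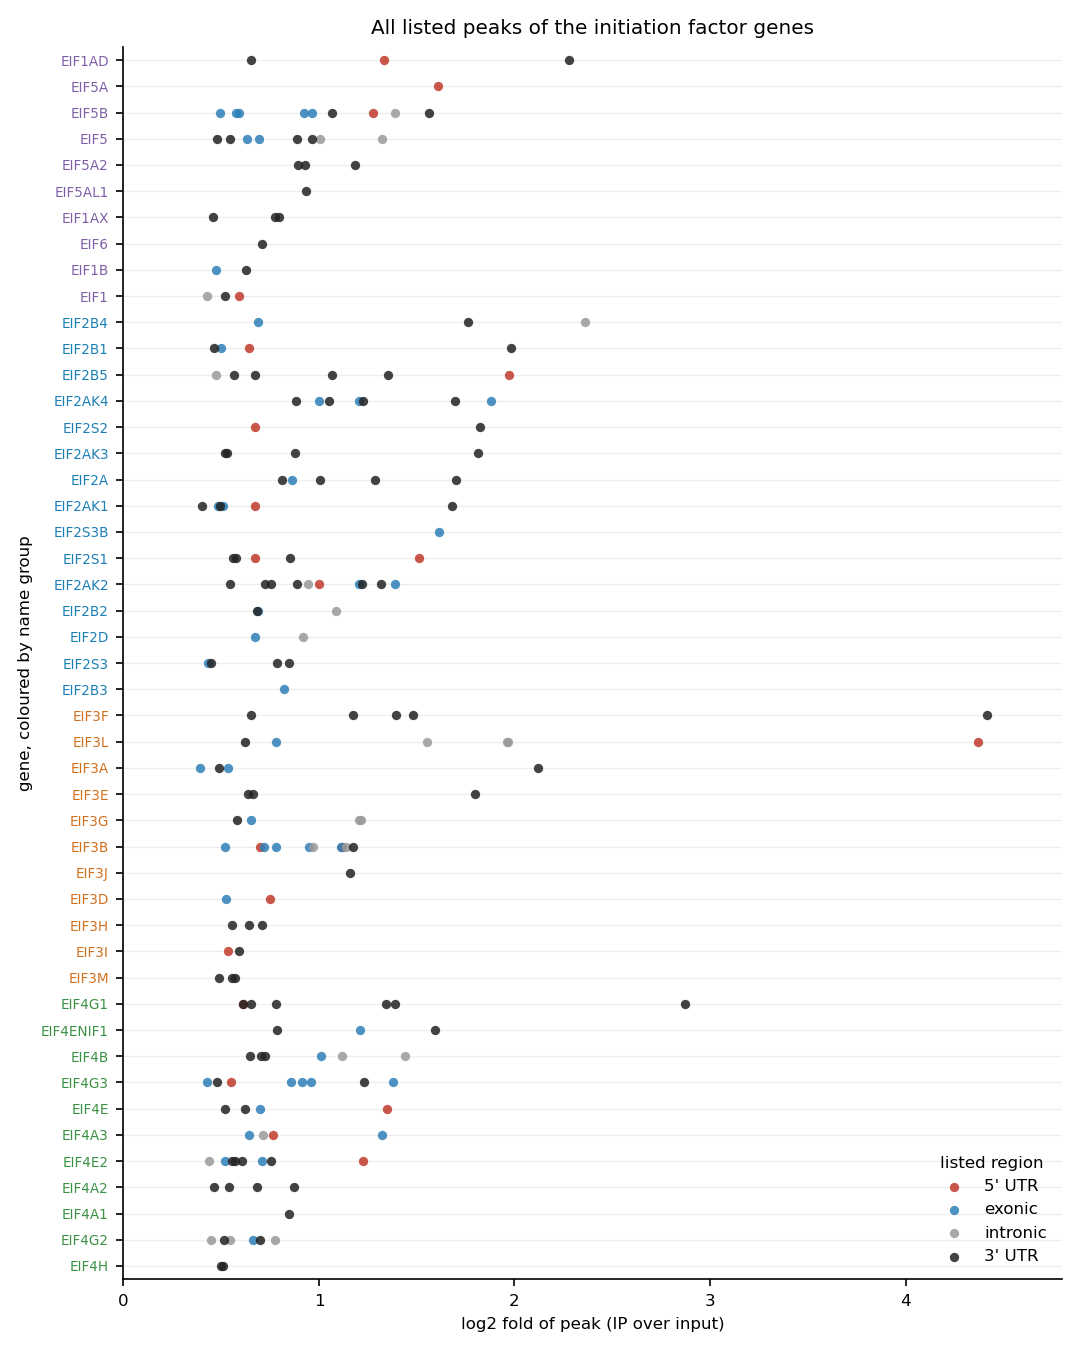
All listed peaks of the 47 initiation factor genes with a peak, by log2 fold (IP over input) on the horizontal axis, 1 row per gene and 1 point per peak, coloured by the region the authors list. EIF3F and EIF3L reach 4.42 and 4.37 with their next peaks at 1.48 and 1.96, and EIF4H has peaks of 0.50 and 0.51 only.

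Among the genes of start codon selection, EIF1 and EIF1AX, which act together in scanning, had strongest peaks of 0.59 and 0.79. EIF1B, a close copy of EIF1, had 0.62, and reads of EIF1 and EIF1B may be shared. EIF1AX also has a pseudogene, EIF1AXP1, which was listed at 6.68 FPKM with a peak of 2.28, beside 13.2 FPKM for EIF1AX. EIF5, which triggers GTP hydrolysis by EIF2, had 8 peaks up to 1.32, and EIF5B had 9 up to 1.56. EIF5A had 1 peak, of 1.61 over 988 nt that cover some of its annotated starts, with an adjusted p of 0.0137. EIF6, which keeps the ribosomal subunits apart, had 1 peak of 0.71, but this region ran from 35267960 to 35279570 on chromosome 20 and lay mostly outside the EIF6 span of 35278907 to 35284985.

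The EIF2 genes had the highest median strongest peak of the 3 large groups, 1.68 (range 0.82 to 2.36), against 1.17 in EIF3 (0.57 to 4.42) and 1.32 in EIF4 (0.51 to 2.87). The ranges overlapped throughout. A 2-fold peak with an adjusted p under 0.001 was listed for 10 of 15 EIF2 genes (66.7%), 4 of 12 EIF3 genes (33.3%) and 5 of 11 EIF4 genes (45.5%), beside the background of 67.5%. A 4-fold peak was listed for 1 of 15 EIF2 genes (6.67%), 3 of 12 EIF3 genes (25.0%) and 1 of 11 EIF4 genes (9.09%). The background for a 4-fold peak was 40.7%. The EIF2 median stood above EIF3 by 0.51 and above EIF4 by 0.36. Without peaks that overlap a peak on the other strand these differences were 0.21 and 0.16, and with only peaks of an adjusted p under 0.001 they were 0.93 and 0.83. Level differed between the groups as well. At 1 to 5 FPKM, where no EIF3 gene lay, the median strongest peak was 1.39 over 7 EIF2 genes and 1.47 over 2 EIF4 genes, so EIF2 was the lower there. At 5 to 20 FPKM the medians of the strongest peak were 1.81 over 5 EIF2 genes, 1.16 over 5 EIF3 genes and 1.32 over 3 EIF4 genes. At 20 to 100 FPKM the medians were 1.68 over 3 EIF2 genes, 1.19 over 6 EIF3 genes and 0.86 over 6 EIF4 genes.

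Within EIF2 each of the 4 kinases held a 2-fold peak of adjusted p under 0.001 (interval 39.8% to 100%, background 67.5%). Their strongest peaks lay among those of the other EIF2 genes, at 1.88 in EIF2AK4, 1.81 in EIF2AK3, 1.68 in EIF2AK1 and 1.39 in EIF2AK2. The peaks of EIF2AK3 and EIF2AK1 were labelled 3' UTR, with adjusted p of 6.50e-42 and 8.64e-81. That of EIF2AK3 ran over 17729 nt under a label from a nonsense-mediated decay transcript, and each overlapped a peak on the other strand. The EIF2AK4 and EIF2AK2 peaks were exonic with adjusted p of 0.0226 and 0.0322, so the peaks that met the stricter rule in those genes were others. The EIF2B subunits spread widely. EIF2B4 at 2.36, EIF2B1 at 1.98 and EIF2B5 at 1.97 were the 3 highest of EIF2, and EIF2B3 at 0.82 was the lowest, with EIF2B2 at 1.09. The strongest peaks of EIF2B5 and EIF2B2 also overlapped a peak on the other strand. EIF2S2 had a 3' UTR peak of 1.82 with an adjusted p of 2.58e-149, while EIF2S3 stood at 0.84. EIF2A and EIF2D, which can deliver tRNA without EIF2, stood at 1.70 and 0.92.

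In EIF3 the values of EIF3F and EIF3L, 4.42 and 4.37, stood apart from the rest, which began with EIF3A at 2.12. EIF3E followed at 1.80 with an adjusted p of 0.0180. EIF3G, an RNA-binding subunit, stood at 1.21, and EIF3B, which with EIF3A forms part of the core, at 1.17 with an adjusted p of 1.09e-77. EIF3J, a loosely bound subunit, had a single peak of 1.16. EIF3M at 0.57, EIF3I at 0.59 and EIF3H at 0.71 were the lowest, and EIF3D, a subunit that can bind the cap of some mRNAs, stood at 0.75. The 12 EIF3 members thus ranged from no listed peak in EIF3K to 21.3-fold in EIF3F. EIF3C and EIF3CL, which the rule left out, had strongest peaks of 2.71 and 7.03 on the log2 scale.

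In EIF4 the scaffold genes held 21 of the group's 53 peaks, with 8 in EIF4G3, 7 in EIF4G1 and 6 in EIF4G2. EIF4G3, a paralogue of EIF4G1, had its strongest peak in an exon at 1.38 with an adjusted p of 1.05e-42. EIF4G2, a relative that lacks the binding site for EIF4E, reached only 0.78. The helicases EIF4A1 and EIF4A2 had nearly equal values, 0.84 and 0.87, and share long stretches of sequence. EIF4A3, a helicase of the exon junction complex, reached 1.32. EIF4ENIF1, which carries EIF4E into the nucleus, stood at 1.59 with an adjusted p of 4.00e-11. EIF4B, a helicase cofactor, reached 1.44 in an intron, with an adjusted p of 0.00813 and a peak on the other strand over it. EIF4H was the lowest of all members with a peak, at 0.51. EIF4E reached 1.35 over its annotated start and EIF4E2 reached 1.23 over the later of its annotated starts only, with adjusted p of 0.0476 and 0.0341.

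Of the 193 peaks, 103 were listed in a 3' UTR (53.4%, interval 46.1% to 60.6%), 46 in other exonic sequence (23.8%), 23 in introns (11.9%) and 21 in a 5' UTR (10.9%). The shares over 39618 peaks of protein-coding genes were 55.5%, 23.4%, 6.90% and 14.1%. The 3' UTR shares of EIF2, EIF3 and EIF4 were 57.1%, 48.8% and 52.8%, with overlapping intervals. The strongest peak of a gene was in a 3' UTR in 26 of 47 members (55.3%) against 63.3% of coding genes, and in an intron in 7 of 47 (14.9%) against 6.05%.

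A 3' UTR label did not always mean the end of the gene. It often belonged to a transcript annotated for nonsense-mediated decay, whose early stop codon makes downstream coding exons count as 3' UTR. This held for 33 of the members' 103 3' UTR peaks (32.0%, interval 23.2% to 42.0%) and for 25.1% over all protein-coding genes. EIF4 had 14 of 28, EIF3 7 of 21, EIF2 10 of 36 and the EIF1, EIF5 and EIF6 genes 2 of 18. Of the 7 peaks of EIF4G1, 6 carried such a label, and 5 of those 6 lay between 26.7% and 62.6% of the way along the gene. In EIF4 the median position of such peaks was 59.3% of the gene span, and that of 3' UTR peaks of protein-coding transcripts was 94.7%. The strongest peak of EIF4G1 lay at 98.5% of the span although it carried the decay label. Counted over peaks of protein-coding transcripts alone, the members' 3' UTR share was 44.3%. The same share over all protein-coding genes was not computed, and their 55.5% includes peaks with the decay label.

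**Figure D5:**
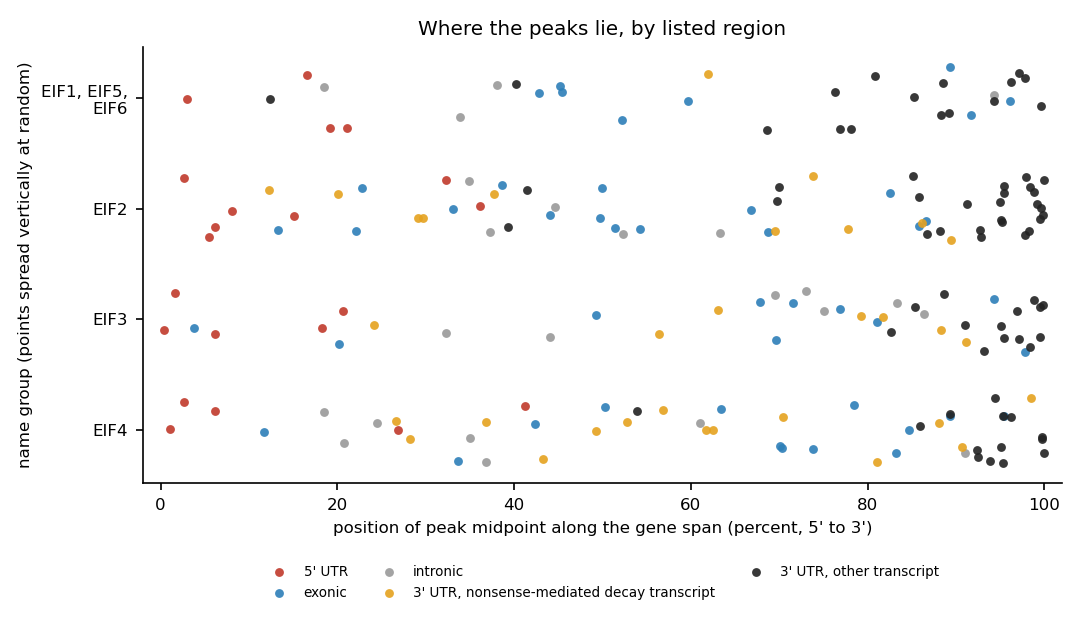
Midpoint of each listed peak along its gene span, from 0 percent at the 5' end to 100 percent at the 3' end, for the 4 name groups, coloured by listed region (the EIF6 peak, which leaves the gene span, is not drawn). Peaks in 3' UTRs of other transcripts gather near the 3' end, whereas the 3' UTR peaks of nonsense-mediated decay transcripts spread along the span, with a median position of 59.3% in EIF4.

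Genes that act on EIF2 and EIF4 or downstream of them gave a similar picture. Of 27 such genes 26 were expressed and 25 of these had a peak (96.2%), with a median strongest log2 fold of 1.18. The 26 genes had a median level of 11.8 FPKM, against 5.58 FPKM over protein-coding genes at 1 FPKM or more, and were not set beside genes of like level. A 4-fold peak was listed for 4 of the 26 (15.4%), beside the 40.7% background. These were RPS6KB1, a kinase downstream of mTOR, at 3.80, RPTOR, which brings substrates to mTOR, at 3.62, PPP1R15B, which guides a phosphatase to EIF2, at 2.82 and PABPC4, a poly(A)-binding protein, at 2.29. EIF4EBP2, a 4E-binding protein that blocks EIF4E, had no peak at 51.5 FPKM. ATF4, the transcription factor whose translation rises when EIF2 is phosphorylated, stood at 66.1 FPKM with a strongest peak of 0.58. LARP1, known to bind terminal oligopyrimidine tracts, reached 1.91 at 45.4 FPKM. Of 11 elongation and termination factors 9 were expressed, with a median level of 20.2 FPKM. A peak was listed for 8 of the 9 (88.9%), beside the background of 96.2%. A 4-fold peak was listed for 3 of the 9 (33.3%, interval 7.49% to 70.1%), beside the background of 40.7%. These were EEF1D at 4.98, GSPT1 at 2.34 and ETF1 at 2.07. EEF1G, a subunit of an elongation factor at 274 FPKM, had no peak.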

How the data were processed

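Per the labels, 1 m6A IP and 1 input library of Huh-7 cells were made from total RNA depleted of ribosomal RNA, with strand-marked cDNA. Tools named in the submitters' processing notes are edgeR, HOMER, StringTie, HISAT2, FastQC and fastp, with no role stated. A peak caller and a build were not given in the sources used here. Per the file headers, the deposited peak table holds the authors' log2 fold (IP over input), p-value and adjusted p-value of each peak, and the deposited gene table gives FPKM by the authors for the input. No counts are given, so depth is unknown. The scaling of the IP to the input is not stated either.

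Peaks were joined to genes by gene ID. Listed peak starts count from 0, since 2729 starts lay 1 nt before a gene start and 0 on it, and were raised by 1; peak lengths were recomputed from those positions. All 49 member spans overlapped RefSeq spans of GRCh38.p14. A gene counted as expressed at 1 FPKM. Biotypes and start windows came from RefSeq by symbol; windows were scanned for a C with 4 further C or T bases, and for GGAC on both strands. Named genes are the 3 highest and 3 lowest of each group by strongest peak, the 3 highest by level and by peak number, members with no peak or a strongest peak overlapped on the other strand, and others by role. The members, the lists and the measure were chosen with earlier results of these data known. Peak counting and overlap were tested on simulated data. Alternatives are given in the closing section. Python 3.11.15, pandas 2.3.3, numpy 2.4.6, scipy 1.17.1 and matplotlib 3.10.9 were used.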

Additional observations from a re-analysis of the deposited data

How the results depend on the processing

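No paired analysis was possible because there is 1 IP and 1 input library. Of 76 values recomputed, 61 stayed within the interval or within 1.5 times of the reported value, and none changed direction. For a median the interval is taken over genes and can be wide, so staying within it can be a weak check. The EIF4 median level, 60.3 FPKM with an interval of 2.87 to 72.6, counted as within it at 11.6 FPKM without genes that have a near-identical copy. With only peaks of an adjusted p under 0.001, 85.4% of members had a peak, the 3' UTR share was 62.1%, and EIF2 stood 0.93 above EIF3 and 0.83 above EIF4. With the median peak of each gene in place of the strongest, the members' median was 0.79, 0 members passed 4-fold, and EIF2 minus EIF3, EIF4 minus EIF3 and EIF2 minus EIF4 were 0.157, 0.0746 and 0.0826. Without peaks overlapped on the other strand these 3 differences were 0.214, 0.0530 and 0.161. EIF4 minus EIF3, 0.15 as reported, was also 0.0530 with a minimum of 5 FPKM and 0.0530 without EIF4A3, EIF4ENIF1 and the EIF2 kinases. The 3' UTR share was 44.3% over protein-coding transcripts, an alternative chosen after seeing the data, as was leaving out EIF3L, which left 5 members with a 4-fold peak. The causes were not tested. With no counts, the precision of a single fold or level cannot be given.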
